A study of Mus musculus with 12 samples.

Results

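The CXC ligands examined here were 8 chemokine genes, *Cxcl1*, *Cxcl2*, *Cxcl3*, *Cxcl5*, *Cxcl9*, *Cxcl10*, *Cxcl11* and *Cxcl16*, taken by name from the 32301 genes or transcripts on the arrays. Their probes were found through the accession that the array design gives each probe and a RefSeq table. Probes were found for 7 of the 8 genes, 1 probe each for 6 of them and 2 for *Cxcl16*. *Cxcl11*, which the table lists as a transcribed pseudogene, was matched to no probe and was not analysed here. RNA of bone marrow-derived macrophages (BMDMs) from C57BL/6 mice at 8 weeks of age was measured on 12 single-colour arrays. The mice were WT or Keap1 flox/flox::LysM-Cre (KpCKO), in which Cre driven from the lysozyme M locus deletes *Keap1* in myeloid cells. All bone marrow was cultured with M-CSF for 7 days, and the BMDMs were left untreated (Con), stimulated with LPS and IFNγ (M1) or stimulated with IL-4 (M2) for 6 h. Each of the 6 groups had 2 arrays, from 2 independent cultures of 1 WT and 1 KpCKO mouse each, male in culture 1 and female in culture 2. Sex and culture can therefore not be told apart.

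CXC chemokines are small secreted proteins that guide leukocytes through G protein-coupled receptors. *Cxcl1*, *Cxcl2*, *Cxcl3* and *Cxcl5* encode ligands with the ELR motif, which draw neutrophils through CXCR2, and in macrophages their genes are known as targets of NF-κB downstream of Toll-like receptors. *Cxcl9* and *Cxcl10* encode ligands of CXCR3 on activated T cells and NK cells, and their genes are known as targets of interferons, with NF-κB as a further input. *Cxcl16* encodes a transmembrane ligand of CXCR6 that also takes up oxidized lipids and is shed by ADAM10. KEAP1 marks the transcription factor NRF2 for degradation, so its loss lets NRF2 accumulate. The questions were how the ligand transcripts responded to M1 and M2 stimulation and whether they differed between the genotypes.

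RefSeq promoters (build GRCm38.p6) were held for 5 of the 8 genes, all on mouse chromosome 5, and not for *Cxcl5*, *Cxcl11* and *Cxcl16*. The 250 bases upstream of each start site are shown with the motif letters found there. Each sequence runs 5′ to 3′ in the direction of its gene, and capitals mark GGGNNTTTCC and GGGNNNNNCC (the strict and the loose κB letters) and GAAANNGAAA (interferon-stimulated response element, ISRE), searched on both strands. Every strict κB match is also a loose one.
*Cxcl1*, chr5:90890995-90891244, plus strand: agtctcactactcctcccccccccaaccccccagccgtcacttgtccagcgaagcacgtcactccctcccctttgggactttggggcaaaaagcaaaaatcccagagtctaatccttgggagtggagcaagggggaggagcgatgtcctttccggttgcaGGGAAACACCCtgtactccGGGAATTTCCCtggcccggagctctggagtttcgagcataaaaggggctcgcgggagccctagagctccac
*Cxcl2*, chr5:90903649-90903898, plus strand: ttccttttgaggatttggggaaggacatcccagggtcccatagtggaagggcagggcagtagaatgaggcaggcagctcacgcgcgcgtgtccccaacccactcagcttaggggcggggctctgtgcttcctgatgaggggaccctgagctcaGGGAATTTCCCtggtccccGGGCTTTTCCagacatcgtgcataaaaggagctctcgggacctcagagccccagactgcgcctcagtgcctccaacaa
*Cxcl3*, chr5:90785851-90786100, plus strand: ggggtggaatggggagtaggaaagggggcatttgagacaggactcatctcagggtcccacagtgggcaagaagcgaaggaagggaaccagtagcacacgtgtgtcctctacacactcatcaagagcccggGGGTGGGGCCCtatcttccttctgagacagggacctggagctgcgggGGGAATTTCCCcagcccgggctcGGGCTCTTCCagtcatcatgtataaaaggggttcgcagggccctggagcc
*Cxcl9*, chr5:92328080-92328329, minus strand: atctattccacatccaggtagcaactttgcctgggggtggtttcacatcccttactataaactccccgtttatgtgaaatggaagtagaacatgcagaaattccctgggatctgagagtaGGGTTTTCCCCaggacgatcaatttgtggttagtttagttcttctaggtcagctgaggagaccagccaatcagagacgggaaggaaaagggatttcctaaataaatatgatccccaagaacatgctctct
*Cxcl10*, chr5:92348890-92349139, minus strand: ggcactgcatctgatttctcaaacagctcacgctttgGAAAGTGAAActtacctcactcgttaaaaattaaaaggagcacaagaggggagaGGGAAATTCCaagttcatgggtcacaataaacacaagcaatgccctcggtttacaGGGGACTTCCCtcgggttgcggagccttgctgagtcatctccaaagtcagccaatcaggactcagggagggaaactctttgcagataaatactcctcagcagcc

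The strict κB letters were found in the windows of *Cxcl1*, *Cxcl2* and *Cxcl3*, from position −71 to −62 before the start site in *Cxcl1*, from −97 to −88 in *Cxcl2* and from −73 to −64 in *Cxcl3*. *Cxcl1* held a further match on the opposite strand from −89 to −80, and *Cxcl2* a further one from −78 to −69. Of 32851 promoters in the RefSeq table, 1.41% held these letters in the same window. The loose κB letters were in all 5 windows, but also in 45.8% of all promoters. The ISRE letters were in the window of *Cxcl10* alone among the 5, from −213 to −204, and in 2.98% of all promoters. Among the letters searched for antioxidant response elements, the sequence class that NRF2 is known to bind, TGACNNNGC was found once, in *Cxcl10* on the opposite strand from −76 to −68 (10.2% of all promoters), and TGAGNNNGC in none of the 5 windows (14.4% of all promoters). The gamma-activated site letters TTCNNNGAA were in none of the 5 and in 7.02% of all promoters. These are matches of letters and do not show binding. The strict κB letters are a simplified form set by hand, so a window without them cannot be said to lack a κB site.

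The level of a transcript is given as log2 of the processed intensity less the 75th percentile of its array, so that 0 is the level of that percentile, and levels are compared between arrays and not between genes. Of 41174 probes, 59.5% to 71.6% were well above background on an array, and no probe was saturated. The 75th percentile signal was 548 to 906 on the 4 M1 arrays and 966 to 1166 on the other 8. Within M1, cultures 1 and 2 of WT had percentiles of 757 and 548, against 906 and 787 for KpCKO. More was thus subtracted from KpCKO than from WT in each culture of M1. Beyond quantile normalization, the part of this scaling in the genotype differences of M1 was not tested. The 4 arrays of a stimulus shared 1 slide and 1 scan. Both genotypes thus lay on each slide, but the effects of a stimulus and of its slide cannot be told apart. *Keap1* was lower in KpCKO BMDMs by 1.46, 1.71 and 1.81 on the log2 scale in Con, M1 and M2 (limma adjusted p = 0.0336, 0.00771 and 0.0161), and *Nqo1*, an NRF2 target, was higher by 3.23, 3.50 and 3.52 (limma adjusted p = 6.9e-05, 6.8e-05 and 7.19e-05). Of the macrophage markers, 7 of 8 were matched, and all 7 were well above background on all 12 arrays.

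The tests are limma's, with the 6 groups and the culture in 1 model, and an adjusted p under 0.05 over all genes tested (Benjamini-Hochberg) is a call. A gene entered if both arrays of 1 or more groups showed it well above background. All 7 ligands passed, *Cxcl1*, *Cxcl2*, *Cxcl10* and *Cxcl16* with a signal well above background on 12 arrays, *Cxcl3* on 10, and *Cxcl5* and *Cxcl9* on 8.

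**Figure D1:**
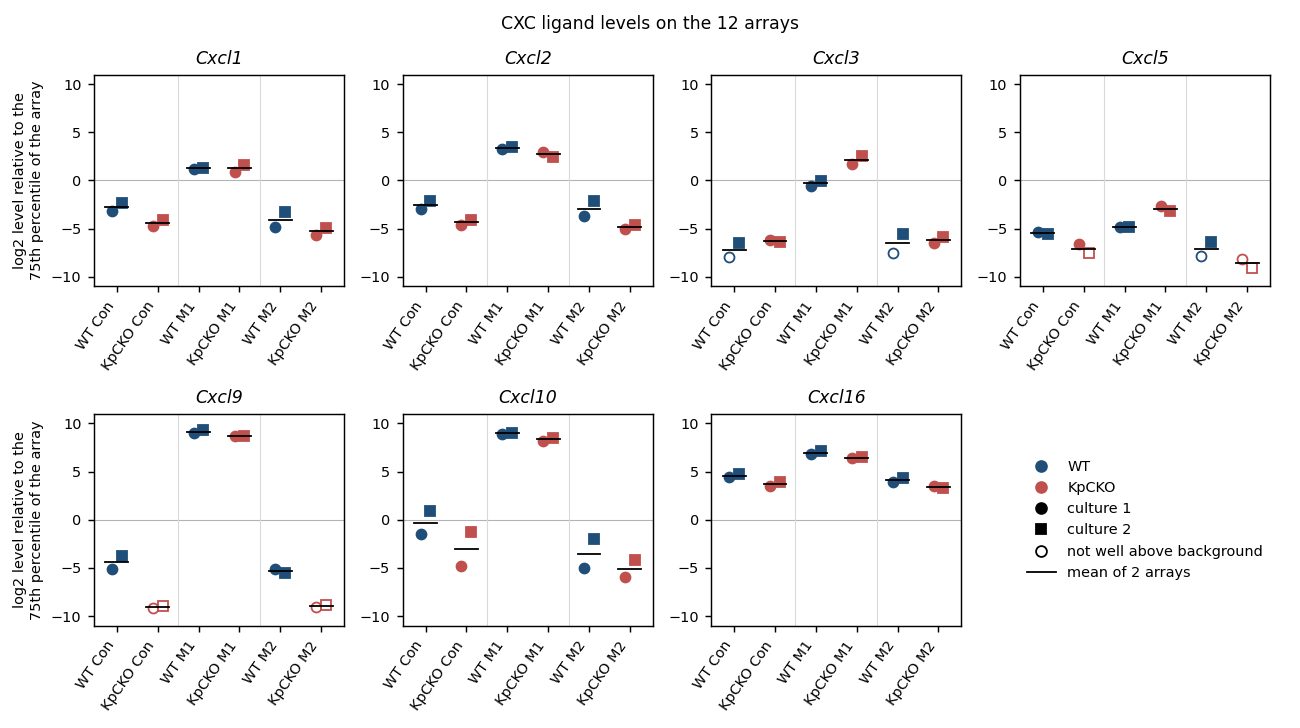
Levels of the 7 CXC ligands on each array, as log2 relative to the 75th percentile of the array (vertical axis), by group (horizontal axis). Circles are culture 1, squares are culture 2, open symbols are not well above background, and bars are the mean of 2 arrays. All ligands were called higher in M1 except *Cxcl5* in WT, and the KpCKO arrays of *Cxcl9* in Con and M2 lay at background.

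M1 stimulation raised 6 of the 7 ligands in WT BMDMs and 7 of 7 in KpCKO BMDMs. Over all genes tested, 34.5% were called higher in WT and 24.8% in KpCKO. Since M1 stimulation and slide are the same split of the arrays, these are differences between the M1 and the Con arrays. Markers of T cells also differed between these arrays. Their summed level (5 of 5 matched) was 0.118 to 0.224 times the 75th percentile on the 4 Con arrays and 4.86 to 6.81 on the 4 M1 arrays. Of the 5, *Cd247*, which encodes the CD3 zeta chain, rose at least 408-fold in WT and 163-fold in KpCKO (limma adjusted p = 1.96e-05 and 0.000106), and *Lck*, a kinase of T cell receptor signalling, 195-fold and 69.9-fold (5.24e-06 and 1.58e-05). *Cd3e* and *Cd3g* did not pass in either genotype (limma adjusted p = 0.0696 to 0.407; 1 WT M1 array of *Cd3e* was dropped as an outlier), and *Cd3d* was not well above background on any array. The part of these markers in the M1 responses was not tested. A lower or higher level in bulk RNA cannot tell the number of expressing cells from the RNA per cell.

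Among the ELR ligands, *Cxcl1* read −3.19 and −2.36 on the WT Con arrays of cultures 1 and 2 and 1.22 and 1.31 on the WT M1 arrays, and −4.77 and −4.08 in KpCKO Con against 0.90 and 1.59 in KpCKO M1. Con and M1 did not overlap in either genotype, and the share of all genes without such overlap was not counted. The M1 response of *Cxcl1* was 4.04 ± 0.29 (SE, 16.4-fold, limma adjusted p = 3.94e-05) in WT and 5.68 ± 0.29 (51.1-fold, 2.08e-05) in KpCKO. *Cxcl2* read −2.98 and −2.09 in WT Con and 3.26 and 3.48 in WT M1, and −4.62 and −4.09 in KpCKO Con against 2.91 and 2.49 in KpCKO M1. Its response was 5.91 ± 0.41 (60.0-fold, limma adjusted p = 3.64e-05) in WT and 7.06 ± 0.41 (133-fold, 3.36e-05) in KpCKO. Both genes were higher in M1 in each culture of each genotype.

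*Cxcl3*, whose product shares CXCR2 with those of *Cxcl1* and *Cxcl2*, read −7.93 and −6.46 in WT Con and −0.53 and −0.04 in WT M1, and −6.14 and −6.35 in KpCKO Con against 1.69 and 2.55 in KpCKO M1. The array at −7.93 was not well above background. The response of *Cxcl3* was 6.91 ± 0.47 (120-fold, limma adjusted p = 3.38e-05) in WT and 8.37 ± 0.47 (330-fold, 2.98e-05) in KpCKO. *Cxcl5*, a further ELR ligand, was not called in WT, where it read −5.30 and −5.53 in Con and −4.80 and −4.84 in M1, a difference of 0.59 that missed the threshold (95% interval −0.69 to 1.87, limma adjusted p = 0.365). In KpCKO, *Cxcl5* read −6.61 and −7.56 in Con, the second of them not well above background, and −2.68 and −3.21 in M1. It rose by 4.14 ± 0.54 there (17.6-fold, limma adjusted p = 0.000812).

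The CXCR3 ligands had larger M1 differences than the ELR ligands. *Cxcl9* read −5.07 and −3.71 in WT Con and 8.99 and 9.31 in WT M1, a response of 13.54 ± 0.35 (limma adjusted p = 3.06e-06) or 11876-fold. In KpCKO, *Cxcl9* was not well above background on either Con array (−9.18 and −8.92) and read 8.66 and 8.70 in M1. Its response there was therefore at least 57504-fold, with the mean of the Con arrays set at the lowest signal well above background on each array (limma adjusted p = 1.54e-06). *Cxcl10* read −1.50 and 0.89 in WT Con and 8.92 and 9.03 in WT M1, and −4.77 and −1.24 in KpCKO Con against 8.20 and 8.54 in KpCKO M1. The 4 Con arrays of *Cxcl10* spread widely and lay higher in culture 2 in both genotypes, whereas the 4 M1 arrays lay within 1 log2 unit. The response of *Cxcl10* was 9.28 ± 0.84 (622-fold, limma adjusted p = 0.000107) in WT and 11.38 ± 0.84 (2658-fold, 8.33e-05) in KpCKO.

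*Cxcl16* was well above background in every group and had a smaller M1 response. It read 4.40 and 4.75 in WT Con and 6.83 and 7.13 in WT M1, and 3.48 and 3.88 in KpCKO Con against 6.41 and 6.48 in KpCKO M1. The response was 2.40 ± 0.16 (5.28-fold, limma adjusted p = 2.82e-05) in WT and 2.76 ± 0.16 (6.78-fold, 3.03e-05) in KpCKO. Its second probe gave mean responses of 2.30 and 2.95. In WT, the M1 responses of the 4 ELR ligands ran from 0.59 to 6.91 with a median of 4.97, and those of *Cxcl9* and *Cxcl10* were 13.54 and 9.28, beside a median of 0.13 over all genes.

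**Figure D2:**
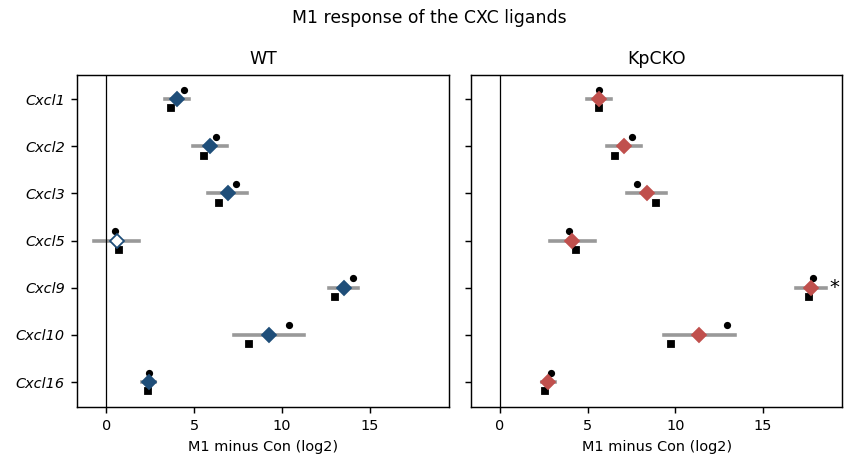
M1 response of each ligand (M1 minus Con, log2, horizontal axis) in WT and KpCKO BMDMs. Diamonds are the estimates, filled where the adjusted p was under 0.05, grey bars are 95% intervals, circles and squares are cultures 1 and 2, and the asterisk marks *Cxcl9* in KpCKO, whose Con arrays were not well above background. All but *Cxcl5* in WT (0.59) passed.

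M2 stimulation lowered *Cxcl1* and *Cxcl10* in WT BMDMs, 2 of the 7 ligands against 8.20% of all genes called lower (1835 genes, and 362 to 488 without any 1 of the 4 arrays compared). *Cxcl1* read −4.85 and −3.32 in WT M2 and was lower than in Con by 1.31 ± 0.29 (2.48-fold, limma adjusted p = 0.0248). *Cxcl10* read −5.00 and −2.00, lower by 3.20 ± 0.84 (9.17-fold, limma adjusted p = 0.0447). Neither gene's M2 arrays overlapped its Con arrays in WT, but both calls were lost without culture 1 of WT M2 (limma adjusted p = 0.102 for *Cxcl1* and 0.214 for *Cxcl10*) and without either WT Con array (0.118 and 0.132 for *Cxcl1*, 0.145 and 0.21 for *Cxcl10*), and that of *Cxcl10* also without culture 2 of WT M2 (0.103). Without the culture in the model, both had also no call. The share of all genes without overlap of M2 and Con in WT was not counted.

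The remaining 5 ligands did not pass for the M2 response of WT. *Cxcl2* read −3.73 and −2.16 in WT M2, which overlapped WT Con. *Cxcl3* read −7.51 and −5.54, and *Cxcl5* −7.81 and −6.36, the first array of each being not well above background. *Cxcl9* read −5.14 and −5.48 and *Cxcl16* 3.96 and 4.36, both below their WT Con arrays in each culture. In KpCKO BMDMs, limma called 0 of the 7 ligands for the M2 response, with 10.2% of all genes called in either direction. At an unadjusted p under 0.05, 3 of the 7 differed there, beside 27.1% of all genes. KpCKO M2 read −5.65 and −4.89 for *Cxcl1*, −5.09 and −4.59 for *Cxcl2* and −6.54 and −5.91 for *Cxcl3*. It read −5.98 and −4.19 for *Cxcl10* and 3.47 and 3.32 for *Cxcl16*, whereas *Cxcl5* (−8.12 and −9.04) and *Cxcl9* (−9.09 and −8.87) were not well above background on either array.

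In untreated BMDMs, 6 of the 7 ligands had a lower level in KpCKO than in WT in both cultures, and 3 of them passed the test, with 0.826% of all genes called lower (185 genes, and 19 to 50 without any 1 of the 4 Con arrays). The share of all genes that were lower in both cultures was not counted. At an unadjusted limma p under 0.05, 6 of the 7 ligands differed, beside 14.1% of all genes. *Cxcl9* was well above background on both WT arrays (−5.07 and −3.71) and on neither KpCKO array (−9.18 and −8.92). It was at least 6.71-fold lower in KpCKO (limma adjusted p = 0.0023). *Cxcl1* was lower by 1.66 ± 0.29 (3.15-fold, limma adjusted p = 0.0399), with WT arrays at −3.19 and −2.36 and KpCKO arrays at −4.77 and −4.08. *Cxcl16* was lower by 0.89 ± 0.16 (1.86-fold, limma adjusted p = 0.0403), and the second *Cxcl16* probe was lower in both cultures, by 1.04 in the mean. The genotypes did not overlap for any of these 3 genes. The share of all genes whose genotypes did not overlap in Con was not counted.

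The other ligands did not pass in Con. *Cxcl2* differed by −1.82 (95% interval −2.79 to −0.85, limma adjusted p = 0.0864) and *Cxcl5* by −1.67 (−2.95 to −0.39, limma adjusted p = 0.217), without overlap of the genotypes. *Cxcl10* differed by −2.70 (−4.70 to −0.70, limma adjusted p = 0.205), and its KpCKO array of culture 2 (−1.24) lay above the WT array of culture 1 (−1.50). *Cxcl3* differed by 0.95 in the other direction (−0.16 to 2.06, limma adjusted p = 0.44). Of the 3 calls, that of *Cxcl9* held without each array in turn (limma adjusted p = 0.00171 to 0.0313), but with normexp background correction the difference was −0.81 and did not pass (limma adjusted p = 0.541). Those of *Cxcl1* (0.188 to 0.223) and *Cxcl16* (0.13 to 0.256) were lost without any 1 of the 4 Con arrays, and without the culture in the model (limma adjusted p = 0.342 and 0.147).

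The summed level of the 7 macrophage markers also differed between the genotypes in Con, at 583 and 639 times the 75th percentile in WT and 405 and 469 in KpCKO, and its part in these differences was not tested. Of the 7, 1 was called lower and 0 higher, and 1 estimate was above 0. The sum includes *Lyz2*, the gene of the lysozyme M locus that drives Cre in KpCKO, with means of 7.00 in WT Con and 6.04 in KpCKO Con. *Cd14*, which binds LPS and is 1 of those markers, was lower in KpCKO by 1.19 (limma adjusted p = 0.00641). The neutrophil markers, 9 of 11 matched, summed to 17.3 and 8.34 in WT Con and 18.2 and 9.53 in KpCKO Con, higher in culture 1 in both genotypes, and *Elane* was not well above background on any array. The fibroblast markers, 7 of 7 matched, summed to 35.4 and 41.8 in WT Con and 54.4 and 28.8 in KpCKO Con, and *Lum* was well above background on 1 of 12 arrays. Summed levels of the dendritic cell markers (4 of 5 matched) were 0.158 to 0.225 in Con and those of B cells (5 of 5) 0.420 to 0.977.

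In M1-BMDMs the ELR ligands had estimates of both signs. *Cxcl3* was higher in KpCKO by 2.41 ± 0.47 (5.30-fold, limma adjusted p = 0.021), with KpCKO arrays at 1.69 and 2.55 and WT arrays at −0.53 and −0.04. It was the 1 ligand of 7 that passed, with 7.42% of all genes called higher and 16.0% called in either direction, so the share of ligands called was near that of all genes. Of all 3580 calls in M1, 1660 were higher, against 2030 of 3382 with quantile normalization. Without KpCKO M1 of culture 1 there were 835 calls and without WT M1 of culture 2 there were 1084. The call was lost without either KpCKO M1 array (limma adjusted p = 0.104 without culture 1 and 0.0627 without culture 2), without WT M1 of culture 2 (0.106) and without the culture in the model (0.0855). *Cxcl5* was higher in KpCKO by 1.87 (95% interval 0.60 to 3.15), with KpCKO arrays at −2.68 and −3.21 and WT arrays at −4.80 and −4.84, and missed the threshold (limma adjusted p = 0.0583). It passed with quantile normalization (limma adjusted p = 0.0466), with only Con and M1 in the model (0.0300) and with trended and robust variances (0.0452).

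The other ELR ligands did not pass in M1. *Cxcl1* differed by −0.02 (95% interval −0.70 to 0.66, limma adjusted p = 0.967), and its genotypes overlapped. Quantile normalization and normexp gave 0.052 and 0.032 for it, so *Cxcl1* has no direction here. *Cxcl2* differed by −0.67 (−1.64 to 0.30, limma adjusted p = 0.288), although the KpCKO arrays (2.91 and 2.49) lay below the WT arrays (3.26 and 3.48). The probe sequences were not used here, so hybridization of 1 of these similar transcripts to the probe of another was not tested.

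*Cxcl9*, *Cxcl10* and *Cxcl16* each lay lower on both KpCKO M1 arrays than on both WT M1 arrays, and none of the 3 passed. The share of all genes without overlap was not counted, and the median difference over all genes was −0.087. At an unadjusted limma p under 0.05, 3 of the 7 ligands differed in M1, beside 34.1% of all genes. *Cxcl9* differed by −0.47 (95% interval −1.30 to 0.36, limma adjusted p = 0.379) and *Cxcl10* by −0.60 (−2.61 to 1.40, limma adjusted p = 0.646). *Cxcl16* differed by −0.53 (−0.90 to −0.17, limma adjusted p = 0.06). It passed with trended and robust variances (limma adjusted p = 0.0309) and with the filter on all 12 arrays (0.0389). Its second probe differed by −0.25 and −0.54 in the 2 cultures. The intervals leave room for differences of either sign for *Cxcl9* and *Cxcl10*.

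In M2-BMDMs, *Cxcl9* was the 1 ligand of 7 called, at least 2.96-fold lower in KpCKO (limma adjusted p = 0.00545), with 0.643% of all genes called lower (144 genes, and 14 to 46 without any 1 of the 4 M2 arrays). It read −5.14 and −5.48 in WT and was not well above background in KpCKO. The call was lost without WT M2 of culture 1 (limma adjusted p = 0.0527) and with normexp (−1.22, limma adjusted p = 0.166). *Cxcl2* differed by −1.89 (95% interval −2.86 to −0.92, limma adjusted p = 0.0860), *Cxcl16* by −0.76 (−1.13 to −0.39, limma adjusted p = 0.0722) and *Cxcl1* by −1.18 (−1.86 to −0.50, limma adjusted p = 0.118). *Cxcl10* differed by −1.58 (−3.58 to 0.42, limma adjusted p = 0.465) and *Cxcl3* by 0.30 (−0.81 to 1.41, limma adjusted p = 0.855). No size is given for *Cxcl5*, which was not well above background on 3 of the 4 M2 arrays. The macrophage markers, which include *Lyz2*, summed to 488 and 545 in WT M2 and 414 and 452 in KpCKO M2, and their part was not tested.

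**Figure D3:**
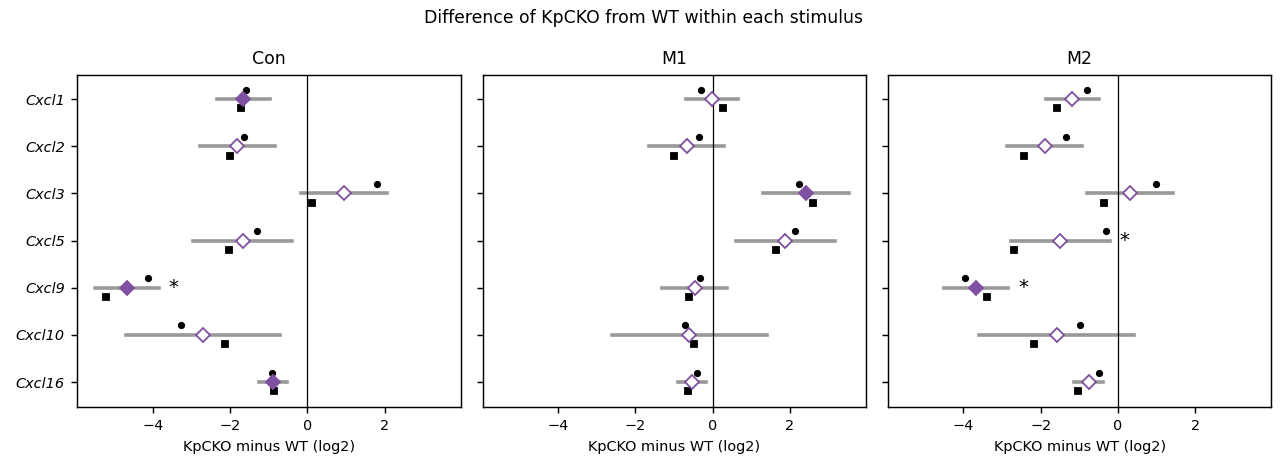
Difference of KpCKO from WT (log2, horizontal axis) for each ligand in Con, M1 and M2. Diamonds are the estimates, filled where the adjusted p was under 0.05, grey bars are 95% intervals, circles and squares are cultures 1 and 2, and asterisks mark *Cxcl5* and *Cxcl9* where the KpCKO arrays were not well above background. In M1, *Cxcl3* (2.41) and *Cxcl5* (1.87) lie to the right of 0, and the others at or to the left of it.

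Whether the M1 response itself differed between the genotypes was tested as an interaction, in which limma called 0 of the 7 ligands and 16 of 22366 genes (0.0715%). Over all genes the count was 537 without WT M1 of culture 1 and 0 to 5 without any other 1 of the arrays compared. At an unadjusted p under 0.05, 3663 genes and 3 of the 7 ligands differed. For all 7 ligands the M1 response was the larger in KpCKO, and so it was for the 4 tested CXC ligands outside the 7. The median of this difference over all genes was −0.074, and the share of all genes above 0 was not counted. The difference was 1.64 for *Cxcl1* (limma adjusted p = 0.166), 1.15 for *Cxcl2* (0.372), 1.45 for *Cxcl3* (0.334), 3.55 for *Cxcl5* (0.145), 2.10 for *Cxcl10* (0.421) and 0.36 for *Cxcl16* (0.447). *Cxcl9*, with KpCKO Con at background, has no size and had a limma adjusted p of 0.0562. It passed in 3 of 17 alternatives, among them trended and robust variances (limma adjusted p = 0.0227), and had no call in the other 14. Over the 17, its estimate ran from 0.34 to 4.83 on the log2 scale, with KpCKO Con at background. These differences share their Con arrays with the genotype comparison in Con and their M1 arrays with that in M1, so they are independent of neither. For the M2 response, limma called 0 of the 7 ligands and 2 of all genes tested (0.00894%), and 0 of the ligands had an unadjusted p under 0.05.

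Set side by side by class, the 4 ELR ligands differed between KpCKO and WT by −1.82 to 0.95 in Con and −0.67 to 2.41 in M1, with medians of −1.66 and 0.93. *Cxcl9* and *Cxcl10* had a median of −0.54 in M1, and no median is given for Con, where *Cxcl9* has only a bound. The median over all genes was 0.0016 in Con and −0.087 in M1. The ELR median in M1 lies between *Cxcl3* and *Cxcl5* above 0 and *Cxcl1* and *Cxcl2* at or below it, so that no ELR ligand was near it. The estimates of both interferon-driven ligands were below 0 in Con and in M1.

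Over the 12 arrays, the levels of the ligands rose and fell together, with Pearson r from 0.793 (*Cxcl3* and *Cxcl5*) to 0.994 (*Cxcl1* and *Cxcl10*) in the 21 pairs. All of these follow the M1 arrays. Of 12402 genes well above background on the 4 M1 arrays, those most like *Cxcl1* were *Clec4e* (r = 0.992), which encodes the C-type lectin Mincle, *Ppp2r5b* (0.991) and *Ehd1* (0.990). *Cxcl10* was closest to *Clec4e* too (0.998), then *Arl5c* (0.992) and *Fpr2* (0.992), a formyl peptide receptor. *Cxcl2* was closest to *Tnfsf9* (0.993), the ligand of 4-1BB, *Rac3* (0.992) and *4931428F04Rik* (0.992), and *Cxcl16* to *Fabp2* (0.992), *Rac3* (0.991) and *Marcksl1* (0.991). *Cxcl9* was closest to genes known as interferon-γ targets, *Gbp7* (0.995) and *Ifi211* (0.993), and to *Cfb* (0.995), complement factor B. *Cxcl3* was closest to *Cisd2* (0.988), *Casp12* (0.981) and *Man1b1* (0.981), and *Cxcl5* to *Piwil2* (0.936), *Clmp* (0.935) and *Ppp1r3d* (0.915).

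Among the other CXC ligands, 4 of 7 were tested. In M1, *Pf4*, platelet factor 4, was lower in KpCKO by 0.66 ± 0.18 (limma adjusted p = 0.0464) and *Cxcl14* was higher by 1.01 ± 0.16 (0.011). *Ppbp*, which encodes a further ELR ligand, differed by 0.47 and *Cxcl12*, the ligand of CXCR4, by −0.28, neither passing. In WT, *Ppbp*, *Cxcl12* and *Cxcl14* fell on M1 stimulation, by 1.57, 1.67 and 2.31 (limma adjusted p = 0.00275, 0.00269 and 3.47e-05), and *Pf4* differed by −0.34 (0.125). *Pf4* was also lower in KpCKO in Con, by 1.39 (limma adjusted p = 0.0133), and in M2, by 0.97 (0.0483). *Cxcl13*, *Cxcl15* and *Cxcl17* did not pass the filter.

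Of 8 receptors for CXC ligands, 6 were tested, and none passed for KpCKO against WT in M1, with a median of −0.53. *Cxcr2*, the receptor of the ELR ligands, differed by −0.61 (95% interval −2.10 to 0.87), *Cxcr3* by −0.68 (−1.70 to 0.34), *Cxcr4* by 0.14 and *Cxcr6* by −0.22. *Cxcr5* differed by −1.10, with 1 of 2 KpCKO arrays well above background, and *Ackr1*, a scavenging receptor, by −0.44. In WT, *Cxcr4* fell by 6.07 (limma adjusted p = 5.68e-05) and *Cxcr6* fell by 1.06 (0.0159) on M1 stimulation. *Cxcr5* rose there at least 5.70-fold (limma adjusted p = 0.000711) from Con arrays not well above background.

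Of 9 genes for the sensing of LPS and the relay of its signal, 3 were called lower in KpCKO in M1 and none higher, beside 8.58% of all genes called lower. The estimates of 4 of the 9 were above 0. *Cd14* was lower by 1.33 (limma adjusted p = 0.00186), *Myd88*, the adaptor of most Toll-like receptors, by 0.74 (0.0121) and *Ticam1*, the TRIF adaptor, by 0.42 (0.0294). The median of the 9 was −0.11, beside −0.087 over all genes. Of 10 NF-κB subunits and inhibitors tested, all rose on M1 stimulation in WT, as did 34.5% of all genes. *Nfkb1* was matched to no probe. In M1, 3 of the 10 tested were lower in KpCKO, as were 8.58% of all genes, and the median of the 10 was −0.42, beside −0.087. The 3 were *Rel*, by 1.69 (limma adjusted p = 0.00887), *Nfkb2*, by 0.65 (0.0428), and *Nfkbib*, which encodes the inhibitor IκBβ, by 0.54 (0.0272).

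Of 15 interferon signalling genes, 11 rose and 2 fell on M1 stimulation in WT, beside 7724 and 6409 of all 22368 genes tested. In M1, 3 were lower in KpCKO and the median was −0.22. *Irf7*, a driver of type I interferon genes, was lower by 1.90 (limma adjusted p = 0.0405), *Jak2*, a kinase of the interferon-γ receptor, by 1.21 (0.0118) and *Irf8* by 0.54 (0.0342). Of 5 genes for the turnover of chemokine mRNAs and the shedding of CXCL16, *Adam10* was matched to no probe and 4 were tested. Of these 4, 2 were lower, *Zfp36l1* by 1.39 (limma adjusted p = 0.0118) and *Zfp36*, which encodes tristetraprolin, by 0.57 (0.0385). Over all genes, 8.58% were called lower in M1. The 13 genes of the 6 lists called in M1 kept their direction under every alternative run on them, but 6 lost the call with quantile normalization (*Irf7*, *Irf8*, *Nfkb2*, *Nfkbib*, *Pf4* and *Zfp36*). Without the replicate block, 2 of the 13 were called (*Jak2* and *Rel*), and without WT M1 of culture 2, 1 was called (*Cd14*). The summed level of the macrophage markers, which include *Cd14* and *Lyz2*, was 833 and 1041 in WT M1 and 560 and 662 in KpCKO M1, and its part in these differences was not tested. Of these 7 markers, 4 were called lower in KpCKO in M1 and 0 higher. Their median difference was −0.50, and 1 estimate was above 0.

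**Figure D4:**
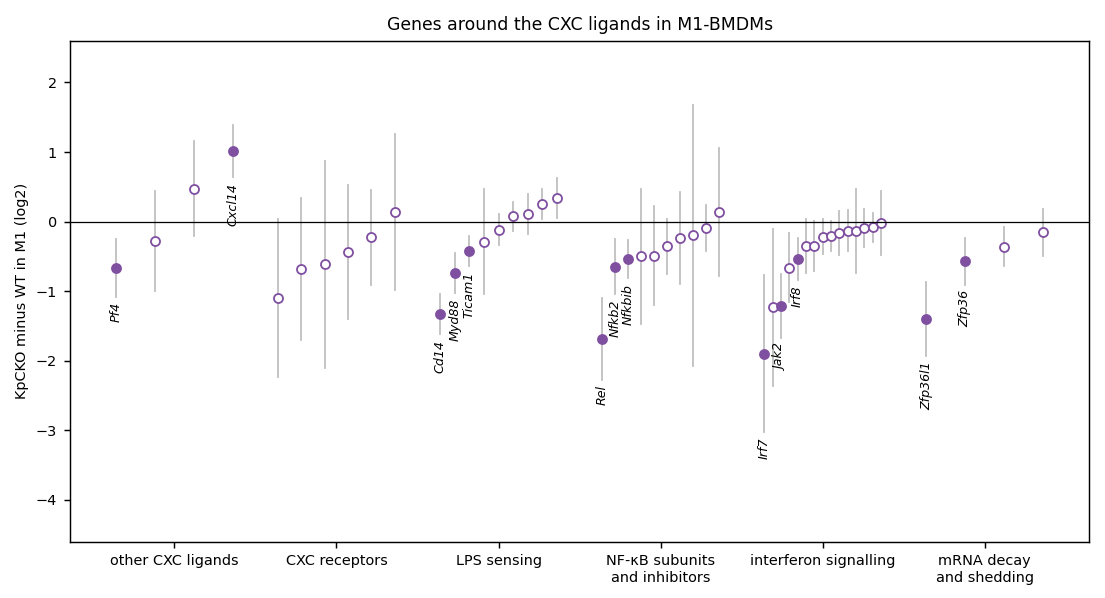
Difference of KpCKO from WT in M1-BMDMs (log2, vertical axis) for the tested genes of 6 lists around the CXC ligands. Points are estimates in rank order within a list, filled and named where the adjusted p was under 0.05, and grey lines are 95% intervals. Of the named genes, *Cxcl14* (1.01) is the one above 0.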

How the data were processed

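RNA labelled with Cy3 was hybridised to 12 single-colour Agilent arrays. The authors used Feature Extraction 10.7.3.1. Their deposited array files hold the processed intensity of every spot (background-subtracted, not scaled between arrays), the median intensities of spot and local background, and flags for signal well above background, saturation and outliers. They also deposited a matrix of log2 values, which on 40749 shared probes equalled log2 intensity minus the array's 75th percentile after centring each probe on its median. The sources name GeneSpring for the normalization and not the method.

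Spots flagged as outliers were dropped, replicate spots were averaged, and the 75th percentile of an array was subtracted from its log2 intensities. Among 41174 probes, 26690 were matched by accession to 18217 RefSeq symbols, and the rest kept their identifiers. The brightest probe stood for a gene. RefSeq gene coordinates were not used, since the build of the array design differs. The promoter sequences are RefSeq's, on GRCm38.p6. The motif letters searched in them are simplified consensus forms set by hand, not taken from the files.

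Genes were kept if both arrays of 1 or more groups showed them well above background, and these 22384 were fitted with limma 3.58.1 in R 4.3.3, with the 6 groups and the culture in the model (5 residual and 1.92 prior degrees of freedom). Culture 1 or 2 is 1 independent culture in the description of the series. Deviations from the group means correlated between same-numbered arrays at r = 0.162 to 0.597 in all 15 pairs of groups, across 22083 genes, so the culture was kept as a block. With 2 arrays per group, p-values rest on few samples. Where both arrays of a group failed that criterion, a fold is given only as a bound, against the higher of its own signal and the lowest signal well above background on each array. The fit was also run on simulated data with independent normal noise, which checks the code and not the calls made here.

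The ligands, gene lists and markers were chosen with earlier results of these data known. Named are all ligands with a probe, the listed genes that passed for KpCKO against WT in M1, the CXC receptors and other CXC ligands that passed the filter, *Keap1* and *Nqo1*, and for each ligand the 3 genes with the highest Pearson correlation over the 12 arrays. Marker genes beyond these are named for being at background or also in another list, *Lyz2* for its locus, and the T cell markers after their values were seen. *Nfkb1* and *Adam10* are named because no probe was matched to them. Alternatives were quantile normalization, normexp background correction with an offset of 50, the authors' matrix, no filter and a filter on all 12 arrays, the mean of a gene's probes, no replicate block, the mouse as a random block, fewer groups in the model, trended and robust variances, the methods' t-test, which the methods name without an adjustment over genes, and each array left out in turn. The authors drew their array gene sets by fold change, so the methods' t-test here is not a rerun of their array analysis. Python 3.11.15, pandas 2.3.3 and matplotlib 3.10.9 made tables and plots.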

Additional observations from a re-analysis of the deposited data

Results flagged for a closer look

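*Cxcl5* differed between KpCKO and WT in opposite directions by stimulus, lower in KpCKO in both cultures in Con and higher in both in M1. The difference between the 2 effects was 3.55 on the log2 scale and did not pass as an interaction (limma adjusted p = 0.145), and 1 of the KpCKO Con arrays of *Cxcl5* was not well above background.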

How the results depend on the processing

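Over the 7 ligands and 9 comparisons, 866 of 960 results under an alternative kept their direction and their side of the threshold, 53 lost the call, 15 gained it and 26 reversed. The M1 response had 6 calls in WT and 7 in KpCKO under each alternative except the methods' t-test after Benjamini-Hochberg adjustment, which called 2 and 0, and the filter on all 12 arrays, which left 4 of the ligands to test and called 4 of 4 in each genotype. Without adjustment, the methods' t-test put 7 ligands past the threshold for either M1 response, 1 for KpCKO against WT in Con, 2 in M1 and 1 in M2, and none after adjustment in these 3 comparisons or in the M2 response of WT. For KpCKO against WT in Con, 3 ligands were called, but 0 with normexp, and 1 without the filter, without the replicate block and with only Con and M1 in the model. In M1, 1 was called, but 2 with quantile normalization, 0 without the replicate block, 2 with only M1 and Con in the model and 3 with trended and robust variances. In M2, 1 was called, but 0 with normexp and 3 with trended and robust variances. With the filter on all 12 arrays, the 1 ligand called in M1 and in M2 was *Cxcl16* (limma adjusted p = 0.0389 and 0.0467). For the M2 response of WT, 2 were called, but 0 with normexp, 1 without the filter and 0 without the replicate block. For the M2 response of KpCKO, 1 was called with only M2 and Con in the model, and for the genotype difference in the M1 response 1 with trended and robust variances. Leaving out 1 array at a time, where the lone array of a group is assumed to vary like the others, gave 6 to 6 calls for the M1 response of WT, 7 to 7 for KpCKO, 0 to 2 for the M2 response of WT, 1 to 1 for KpCKO against WT in Con, 0 to 1 in M1, 0 to 1 in M2, and 0 to 1 for the genotype difference in the M1 response. Of the 3 Con calls, *Cxcl9* was the one left in each case. Without the replicate block, which pairs arrays by culture, *Cxcl1* and *Cxcl16* in Con and *Cxcl3* in M1 were not called, while *Cxcl9* was in Con (limma adjusted p = 0.00203) and in M2 (0.00621). Over all genes, settings other than leaving out an array called 0 to 702 in Con (495 as reported), 0 to 4355 in M1 (3580) and 0 to 581 in M2 (431) for KpCKO against WT, and the 0 in each is the adjusted methods' t-test, with 1618, 2729 and 1740 before adjustment. For the M1 response these counts were 2934 to 18027 in WT (14133) and 0 to 11805 in KpCKO (11230), for the M2 response 2 to 4961 in WT (3764) and 0 to 3009 in KpCKO (2281), and for the genotype difference 0 to 108 in M1 (16) and 0 to 2 in M2 (2). Leaving out 1 array called 96 to 170 genes in Con, 835 to 3628 in M1 and 67 to 140 in M2 for KpCKO against WT, 10755 to 13484 and 8063 to 9815 for the M1 response of WT and KpCKO, 927 to 1166 and 483 to 816 for the M2 response, and 0 to 537 and 0 to 2 for the genotype difference in M1 and M2. In M2, 287 of 431 calls between the genotypes were higher, against 124 of 225 with normexp, and in the M2 response 1929 of 3764 in WT and 1268 of 2281 in KpCKO, against 1028 of 1674 and 457 of 690.

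The median difference of the ELR ligands in Con was −1.66 and moved to −0.64 with normexp. Their median in M1 was 0.93 and moved to 1.03 with quantile normalization, 0.42 with normexp and −0.34 with the filter on all 12 arrays, which left *Cxcl1* and *Cxcl2*. The median of *Cxcl9* and *Cxcl10* in M1 was −0.54 and moved to −0.23 with quantile normalization, −0.61 with normexp and −0.60 with the filter, which left *Cxcl10*. Normexp also moved the median of all genes, from −0.087 to −0.22 in M1 and from 0.019 to −0.22 in M2 for KpCKO against WT, from 0.13 to 0.40 for the M1 response of WT and from −0.0083 to 0.29 for the M2 response of WT. For the M1 response of WT, quantile normalization moved it to −0.079.

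Values that changed sign were of results with no call. Quantile normalization turned the M2 response in KpCKO of *Cxcl3* (−0.0062) and *Cxcl9* (−0.080), and *Cxcl1* in KpCKO against WT in M1 (0.052). Normexp turned the M2 response in WT of *Cxcl5* (0.40) and *Cxcl9* (0.29), that in KpCKO of *Cxcl3* (−0.079) and *Cxcl9* (−0.13), KpCKO against WT for *Cxcl1* in M1 (0.032) and *Cxcl3* in M2 (−0.68), and the genotype difference in the M2 response of *Cxcl5* (−0.53) and *Cxcl9* (−0.42). Leaving out 1 array gave ranges on both sides of 0 for the M2 response of *Cxcl2* in WT (−1.03 to 0.21) and *Cxcl3* in KpCKO (−0.63 to 0.67), for KpCKO against WT of *Cxcl1* in M1 (−0.42 to 0.38), *Cxcl10* in M1 (−1.65 to 0.44) and *Cxcl3* in M2 (−0.36 to 0.96), and for the genotype difference in the M2 response of *Cxcl2* (−0.69 to 0.55), *Cxcl3* (−1.32 to 0.0096), *Cxcl5* (−0.81 to 1.17) and *Cxcl16* (−0.095 to 0.36). The causes were not tested. The slide as a block was not run, since each slide holds 1 stimulus. Signals near background limit *Cxcl3*, *Cxcl5* and *Cxcl9* in Con and M2, and 2 arrays per group limit all comparisons.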
